A study of Mus musculus with 48 samples.

Results

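Vertical sleeve gastrectomy (VSG) was compared with a sham operation followed by weight matching (S_wm) in enteroendocrine cells of the duodenum. The libraries were chosen by their tissue and condition labels, and 11 of the 48 libraries of the series qualified: 6 from VSG mice and 5 from S_wm mice, each library from a different mouse. The comparison of VSG with S_wm is also given without S_wm mouse 27, whose library was rich in transcripts of other epithelial and immune cells. In that case 4 S_wm libraries remained. Some values between regions or against other groups are given only with it. With all 11 libraries, transcripts of the circadian clock output genes Nr1d1, Nr1d2 and Dbp were lower after VSG than in S_wm mice. So were those of single transporter genes such as Slc28a1, detoxification genes such as Gstm1 and Paneth cell genes such as Defa17. Ufsp1 and Tmem252 were higher. For Dbp the VSG libraries overlapped those of sham-operated mice fed ad libitum, and the S_wm libraries lay above both. Without mouse 27 no gene passed the threshold, although the log2 fold changes of the clock output genes, Gstm1, Acsf2, Ufsp1 and Tmem252 kept their direction and most of their size.

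Enteroendocrine cells are scattered secretory cells of the gut epithelium that sense nutrients and release hormones such as GIP, CCK, secretin, somatostatin and ghrelin in the duodenum. The transcription factor NeuroD1 marks most of the lineage, and its promoter is commonly used to label these cells in mice. The duodenum is the first intestinal segment to receive what the stomach empties, and vertical sleeve gastrectomy narrows the stomach without rerouting the intestine.

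All mice were lean male C57BL6 animals that carried Neurod1-cre and an eYFP reporter, so that cells with a history of Neurod1 promoter activity, and not those with the protein at the time of the sort, were fluorescent. Surgery was done at about 20 weeks of age. VSG removed 70% to 80% of the stomach, S_wm mice had a sham operation and a food allowance that matched their body weight to that of VSG mice, and 5 sham-operated mice fed ad libitum (S_al) provided duodenum libraries that are given beside the comparison. VSG mice also received vitamin B12 and S_wm mice received their food 2 times a day, so surgery, the vitamin and the feeding schedule cannot be told apart. Mice of every group were housed singly, took a liquid diet around the operation and chow afterwards, and were given an analgesic and antibiotics. After 6 weeks they were fasted overnight and gavaged with glucose at 3 g/kg, and the top 5 cm of the small intestine was taken about 15 min later. Epithelial cells were detached, eYFP-positive cells negative for the leukocyte marker CD45 were sorted, and 2 ng of RNA per library was sequenced. Ileum and colon libraries of the same mice were used to estimate the spread and for the comparison between regions.

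Total counts were between 5254340 and 11233615 in the 11 libraries, with 18789 to 20774 genes detected per library. Levels are given as CPM, counts scaled to library size, after TMM scaling, which adjusts for library composition. The test was edgeR's quasi-likelihood test with Benjamini-Hochberg adjustment over all tested genes, and a gene was called when its adjusted p was under 0.05. These p-values measure the spread between libraries of the same group and region, pooled over all 48 libraries from 17 mice. The fit held no term for the mouse, so libraries of the same mouse counted as independent. It had 39 residual degrees of freedom with all libraries. The spread is therefore not that between duodenum mice alone. The samples are bulk RNA, so fewer cells of a type and less RNA per cell cannot be told apart. All gene lists were chosen with earlier results of these data known. Their counts are given beside the shares of all genes only as a description.

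The library of S_wm mouse 27 stood apart from the other 10. Neurod1 was at 142 CPM there, against 589 to 762 CPM in the other S_wm libraries and 467 to 956 CPM in the VSG libraries. The summed level of 10 defining enterocyte markers was 44887 CPM in mouse 27, against 6461 to 7482 CPM in the other S_wm libraries, 5372 to 7354 CPM in the VSG libraries and 5547 to 13987 CPM in the S_al libraries. Of the 10 markers, 0 were at 0 across the 11 libraries. The other 4 S_wm libraries and the VSG libraries overlapped in this sum.

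The same library was high in further cell types. Its 10 Paneth cell markers summed to 3825 CPM, against 206 to 815 CPM in the other S_wm and 147 to 386 CPM in the VSG libraries. Its 18 immune cell markers summed to 2093 CPM, against 32.5 to 383 CPM and 30.2 to 680 CPM. Cd74, which is also in a list of interferon and MHC II genes, made up most of the larger sums. It was 621 CPM in VSG mouse 28 and 1816 CPM in mouse 27. Ptprc and Gzma were also highest in mouse 27, at 13.7 and 127 CPM. Goblet cell markers reached 9193 CPM there, against at most 5490 CPM in the other S_wm libraries and 5302 CPM in the VSG libraries. Granin and prohormone-processing genes, which enteroendocrine cells express strongly, summed to 12306 CPM in mouse 27 and to 39585 to 62183 CPM in the other S_wm libraries. Mouse 27 was the highest of the 11 libraries for 4082 of the 15126 tested genes, and each other library for 740 to 1445. Its library was also the only one of the 11 with the second library index D501, the others having D502. The S_al duodenum libraries of mice 12, 13 and 32 had D501 too. Their sums were 43414 to 71035 CPM for the granin list and 6341 to 13987 CPM for the defining enterocyte markers. Their Paneth marker sums were 131 to 558 CPM. Among the 11 libraries the index and the mouse cannot be told apart, and the part of the index was not tested.

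**Figure D1:**
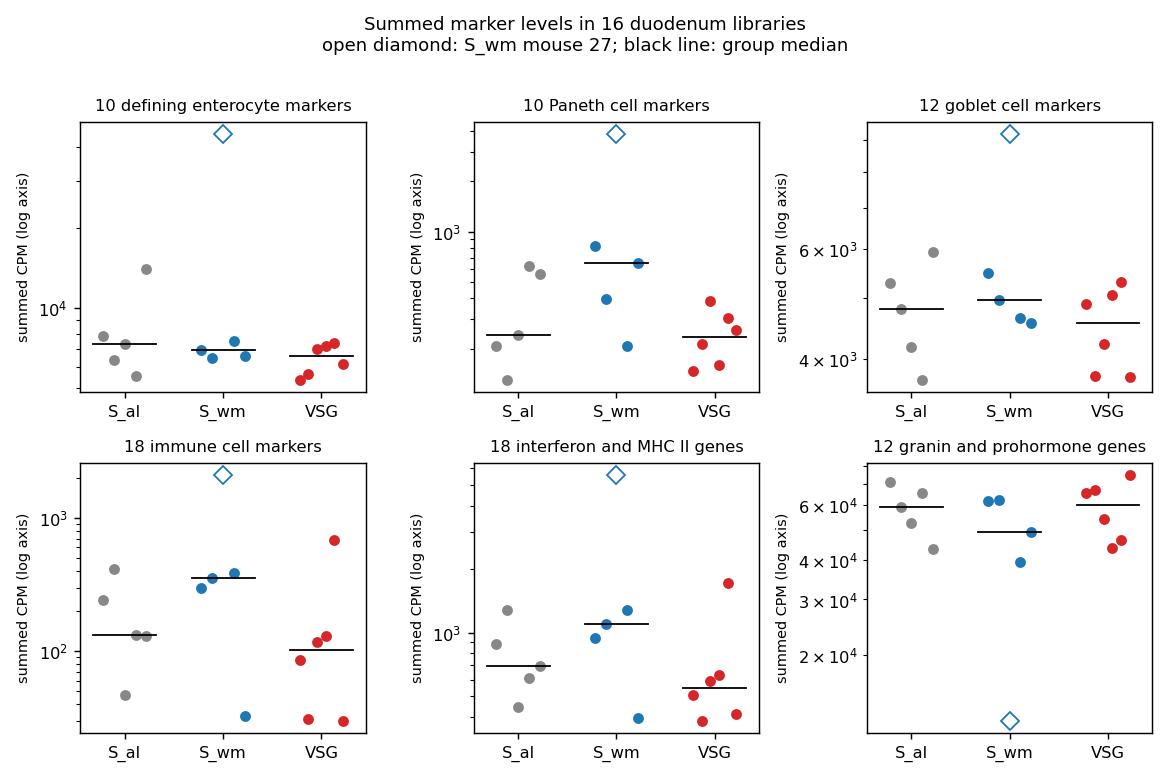
Summed levels of 6 marker lists (CPM, log axis) in the 16 duodenum libraries of the S_al, S_wm and VSG groups, with 1 point per library, an open diamond for S_wm mouse 27 and a line at the group median of all its libraries. Mouse 27 lies above every other library in the enterocyte, Paneth, goblet, immune and interferon or MHC II lists and, at 12306 CPM, below every other library in the granin list.

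With all 11 libraries, 34 of 15126 tested genes (0.225%) were called, 32 lower after VSG (0.212%) and 2 higher (0.0132%). The number fell to 7 with limma voom and the mouse as a replicate block, and rose to 201 with DESeq2. It was 0 when the fit held only the duodenum libraries (13800 genes tested, 1058 at an unadjusted p under 0.05) and 0 when it held only the 11 compared (13302 genes tested, 743). The 32 lower genes had a median log2 fold change of -2.11, against 0.00654 over all tested genes. Of the tested genes, 1015 (6.71%) were lower and 303 (2%) higher at an unadjusted p under 0.05. Mouse 27 had the highest level of the 11 libraries in 32 of the 34 called genes, and in 27 of them it was over 4-fold above the median of the others.

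Without mouse 27, 0 of 15457 genes (0%) were called by edgeR or by DESeq2, and the lowest adjusted p of any gene was 0.449. At an unadjusted p under 0.05, 200 genes (1.29%) were lower and 309 (2%) higher after VSG, and DESeq2 gave 595 in either direction. All 34 called genes kept their direction in these 10 libraries, and the median log2 fold change of the 32 lower genes was -1.03. At an unadjusted p under 0.05, 27 of the 34 differed without mouse 27, but the genes had been selected on libraries that included the same VSG and S_wm mice. Groups did not overlap in 46 genes (0.304%) lower and 34 genes (0.225%) higher after VSG with 11 libraries, and in 98 genes (0.634%) in each direction with 10. Of the 34 called genes, 14 did not overlap in either case.

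**Figure D2:**
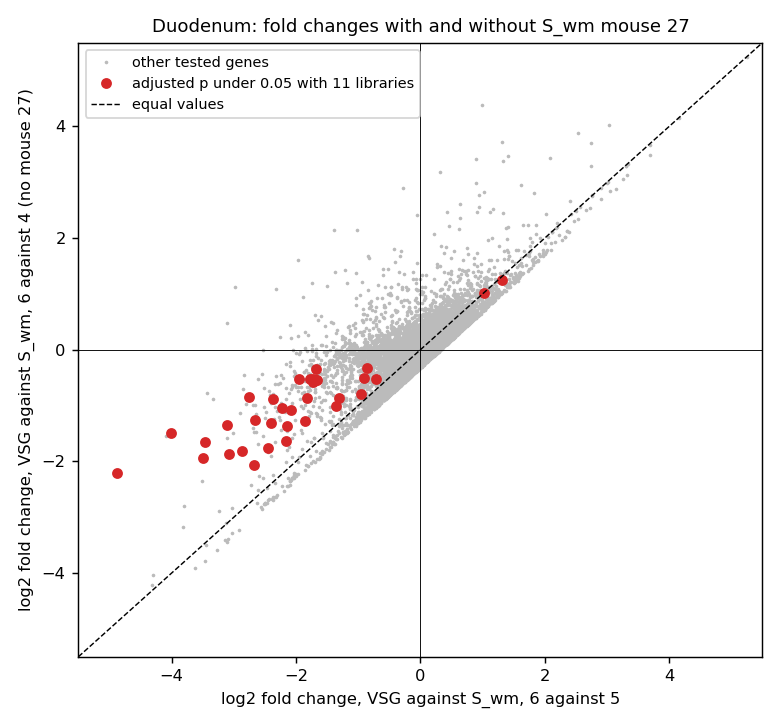
Log2 fold change of each tested gene, VSG against S_wm, with all 11 libraries (x axis) and without S_wm mouse 27 (y axis), with the 34 called genes in red and a dashed line where both values are equal. The 32 red points on the left lie above the dashed line, with a median of -2.11 on the x axis and -1.03 on the y axis, and the 2 on the right lie close to it.

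The clock output genes Nr1d1 and Dbp were among the called genes that did not overlap between groups. Nr1d1 (chromosome 11, 98767932 to 98775333 on GRCm38) encodes REV-ERB alpha, a nuclear receptor that represses Arntl. Its level was 41.2, 43.6, 105, 31.6 and 33.1 CPM in S_wm mice 16, 21, 27, 29 and 31, and the VSG libraries had a lowest value of 15.9, a median of 19.8 and a highest of 27.7 CPM. Every VSG library was below every S_wm library, and mouse 27 was far above the rest. The log2 fold change was -1.30 ± 0.24 (SE, n = 6 and 5, edgeR adjusted p = 0.0112), and without mouse 27 it was -0.86 ± 0.21 (n = 6 and 4, unadjusted p = 0.000145 from edgeR, adjusted p = 0.449). S_al libraries lay between 24.4 and 44.7 CPM, and overlapped both groups.

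Dbp (chromosome 7, 45705088 to 45710203) encodes a transcription factor of the PAR bZIP family whose RNA follows the time of day closely. S_wm mice 16, 21, 27, 29 and 31 had 16.1, 18.1, 39.5, 12.6 and 19.98 CPM. The VSG libraries lay between 5.41 and 10.9 CPM with a median of 7.81, and the S_al libraries between 5.55 and 9.15 CPM. Here the S_wm libraries were above both other groups without overlap. The log2 fold change of VSG against S_wm was -1.35 ± 0.27 (edgeR adjusted p = 0.0133) and -1.01 ± 0.26 without mouse 27 (unadjusted p = 0.000303). Against S_al it was 0.10 for VSG and 1.11 for S_wm, both without mouse 27 and with S_al as the shared reference. The study's methods do not give the hour at which tissue was taken.

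Nr1d2, which encodes the related receptor REV-ERB beta, was 29.2, 43.5, 66.5, 40.7 and 39.4 CPM in the S_wm mice and 22.7 to 31.5 CPM after VSG, with an overlap only at S_wm mouse 16. In S_al libraries it was 23.5 to 40.5 CPM, which overlapped both groups. Its log2 fold change was -0.72 ± 0.16 (edgeR adjusted p = 0.0418), and -0.53 ± 0.16 without mouse 27. Tef, another PAR bZIP gene, was not called (-0.83 ± 0.20, edgeR adjusted p = 0.0526) and had a value of -0.58 without mouse 27. Arntl, which encodes the activator BMAL1, had a positive value of 0.62 ± 0.22 (edgeR adjusted p = 0.247) and 0.55 without mouse 27. Of 21 genes of the clock list, 3 were called lower and 0 higher, and the median log2 fold change of the list was -0.15 with 11 libraries and -0.04 with 10. Without mouse 27, 4 clock genes were lower (Nr1d1, Dbp, Nr1d2 and Tef) and 1 higher (Arntl) at an unadjusted p under 0.05, and Per1, Per2, Cry1, Cry2 and Clock had fold changes between -0.07 and 0.33. Among all tested genes, 1.29% were lower and 2% higher at this p. No called gene held the lowest log2 fold change of the clock list, which was -2.02 with 11 libraries and -1.27 with 10. Nr1d1 overlaps Thra and Dbp overlaps Sphk2 on the opposite strand. Of the 34 called genes, 11 overlap another gene in this way. Whether reads were counted by strand is not given in the sources used here, so a part of these counts could belong to the partner gene.

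**Figure D3:**
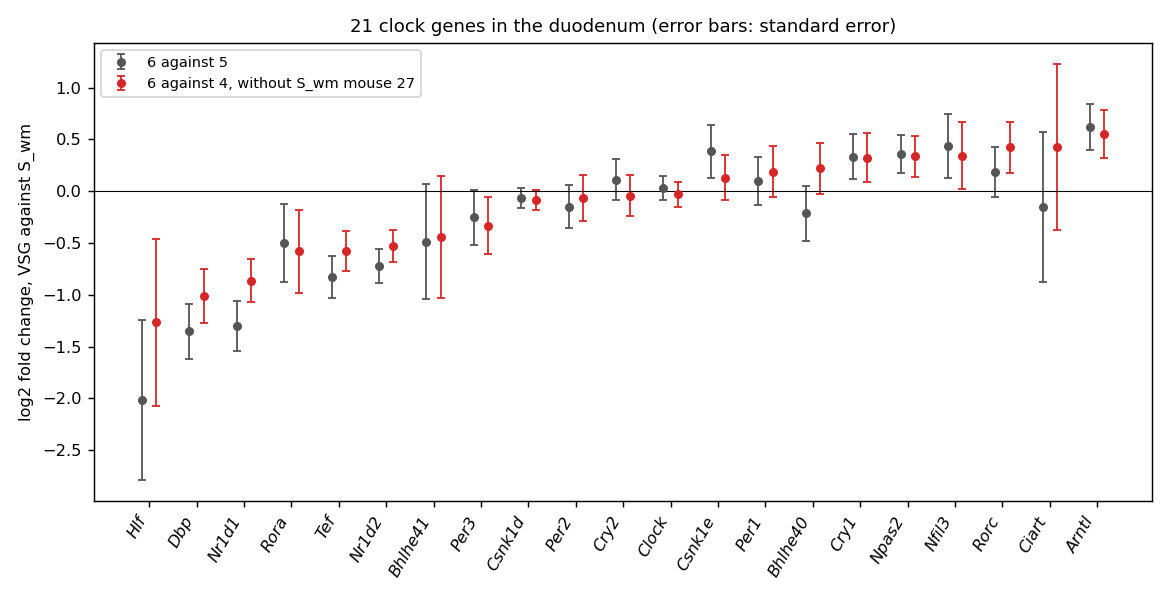
Log2 fold change (VSG against S_wm, with SE) of the 21 clock genes, ordered by the value without mouse 27, in grey with 6 against 5 libraries and in red with 6 against 4. Dbp, Nr1d1, Tef and Nr1d2 lie below 0 and Arntl above 0 in both, while Per1, Per2, Cry2 and Clock lie close to 0. The lowest value without mouse 27, -1.27, is that of a gene that was not called.

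The stretches of 250 bases before the RefSeq start sites of Nr1d1 (chr11:98775378-98775627, minus strand), Dbp (chr7:45704997-45705246, plus strand) and Tef (chr15:81802423-81802672, plus strand), on GRCm38.p6, are shown because clock genes are known to be controlled through short elements near their starts. Capitals mark the E-box CACGTG, the element bound by BMAL1 with CLOCK.
Nr1d1: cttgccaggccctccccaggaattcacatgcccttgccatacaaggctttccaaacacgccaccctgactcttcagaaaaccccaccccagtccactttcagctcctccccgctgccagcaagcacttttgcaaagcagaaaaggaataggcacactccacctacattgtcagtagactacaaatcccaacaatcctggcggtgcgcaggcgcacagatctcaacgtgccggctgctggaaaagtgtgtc
Dbp: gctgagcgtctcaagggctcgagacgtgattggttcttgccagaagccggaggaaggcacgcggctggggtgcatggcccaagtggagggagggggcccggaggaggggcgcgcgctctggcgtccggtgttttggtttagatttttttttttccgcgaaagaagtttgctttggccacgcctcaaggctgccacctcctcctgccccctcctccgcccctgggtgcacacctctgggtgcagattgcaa
Tef: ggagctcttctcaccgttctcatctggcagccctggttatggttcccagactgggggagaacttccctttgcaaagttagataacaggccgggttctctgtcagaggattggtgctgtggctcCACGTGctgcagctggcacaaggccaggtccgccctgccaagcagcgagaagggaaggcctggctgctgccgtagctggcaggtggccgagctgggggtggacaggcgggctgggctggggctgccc
Windows of 300 bases, 250 before and 50 after the start, were found for 17 of the 21 clock genes and searched on both strands for the E-box, the D-box TTATGTAA bound by PAR bZIP factors and the element TAGGTCA bound by REV-ERB and ROR receptors. An E-box was present in the windows of 5 clock genes (Per1, Cry1, Tef, Bhlhe41 and Ciart), and in 7.15% of all 32851 windows. The E-box of the Tef window shown lay at position -127 from the start. A D-box was found in 1 clock gene, Per3 (0.938% of all windows), and TAGGTCA in 2, Arntl and Nfil3 (2.61%). The windows of Nr1d1, Dbp and Nr1d2 held none of these letters, which says nothing about elements elsewhere in those genes.

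Several of the lower genes encode transporters of nutrients and ions. Slc28a1, which encodes a sodium-coupled nucleoside transporter, was 10.3, 8.29, 57.8, 9.12 and 8.08 CPM in S_wm mice 16, 21, 27, 29 and 31 and 1.01 to 4.79 CPM after VSG. The groups did not overlap, and the S_al libraries, at 4.61 to 15.7 CPM, overlapped both. Its log2 fold change was -2.88 ± 0.57 (edgeR adjusted p = 0.014) and -1.81 ± 0.53 without mouse 27 (unadjusted p = 0.00131). Slc6a20a, a proline transporter gene, was 19.6, 42.3, 169, 26.1 and 24.1 CPM in the S_wm mice and 10.5 to 17.4 CPM after VSG, again without overlap, and its fold change was -2.08 ± 0.47 with 11 libraries and -1.08 ± 0.41 without mouse 27. Slc6a20a overlaps Ccr9 on the opposite strand.

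Other transporter genes had much smaller values without mouse 27. Slc4a7, which encodes a sodium bicarbonate cotransporter, was 1336 CPM in mouse 27, 130 to 184 CPM in the other S_wm libraries and 87.4 to 134 CPM after VSG, and its log2 fold change moved from -1.77 to -0.53. The ferroportin gene Slc40a1, whose product exports iron from cells, was 685 CPM in mouse 27, 30.1 to 56.0 CPM in the other S_wm libraries and 18.9 to 46.5 CPM after VSG, and its value moved from -2.76 to -0.84. For the citrate transporter gene Slc13a2 the change was from -3.10 to -1.35, and for the vitamin C transporter gene Slc23a1 from -4.00 to -1.50. Slc23a1 was 23.7 CPM in mouse 27, 0.234 to 1.998 CPM in the other S_wm libraries and 0.101 to 0.832 CPM after VSG. Slc5a4a, a member of the sodium glucose cotransporter family, was -3.49 and -1.94. Of a list of 21 genes, mainly sugar and amino acid transporters, 3 were called, all lower (Slc4a7, Slc28a1 and Slc6a20a). Among all tested genes 0.212% were called lower. Slc4a7 and Slc28a1 carry neither sugars nor amino acids. The list's median was -0.68 with 11 libraries and -0.12 with 10. The main glucose transporter gene of the brush border, Slc5a1, was 5133 CPM in mouse 27 and 292.1 to 782 CPM in the VSG libraries, and its value moved from -1.68 to -0.12.

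Of the xenobiotic list, which holds detoxification enzymes, 4 of 41 tested genes were called lower with 11 libraries and 0 without mouse 27. Gstm1, a glutathione S-transferase gene, was 74.0, 48.1, 152, 23.0 and 25.9 CPM in the S_wm mice and 9.51 to 27.6 CPM after VSG, with a median of 18.3. S_wm mice 29 and 31 lay inside the VSG range. Its log2 fold change was -1.85 ± 0.33 (edgeR adjusted p = 0.0112) and -1.27 ± 0.29 without mouse 27 (unadjusted p = 7.65e-05, adjusted p = 0.449). The carboxylesterase gene Ces1g, also called, was 2.19 to 14.7 CPM in the S_wm mice, 0.631 to 2.22 CPM after VSG and 4.26 to 8.89 CPM in S_al mice, and its fold change was -2.16 ± 0.48 with 11 libraries and -1.63 ± 0.49 with 10. Gsta4 (-1.82, and -0.87 without mouse 27) and the cytochrome P450 gene Cyp3a25 (-2.65 and -1.26) were the other members called.

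The median of the xenobiotic list was -0.96 with 11 libraries and -0.27 with 10. At an unadjusted p under 0.05, 25 members were lower and 0 higher with 11 libraries, and 7 were lower and 0 higher without mouse 27. The shares of all tested genes that were lower at this p were 6.71% and 1.29%. Among the 7, Cyp2c55, which was not called, had 13.7 to 25.4 CPM in the 4 S_wm libraries and 3.64 to 13.9 CPM after VSG (log2 fold change -1.69 without mouse 27). When each further library was also left out, the 7 became 4 (without S_wm mouse 16) to 9 (without VSG mouse 28). Members of the Gst, Ces, Cyp3a and Ugt2b families resemble each other closely, so reads may have been split between copies. Acsf2, a gene of the acyl-CoA synthetase family, was lower as well, at 36.1, 31.8, 48.9, 25.9 and 26.0 CPM against 11.2 to 25.2 CPM. Its groups did not overlap, and its fold change changed little without mouse 27, from -0.96 ± 0.19 to -0.80 ± 0.19 (unadjusted p = 0.000107). Acsf2 overlaps Chad on the opposite strand.

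Absorptive enterocyte genes differed mainly with mouse 27 included. Of 38 such genes, 35 were lower at an unadjusted p under 0.05 with 11 libraries and 2 without mouse 27, and the median moved from -1.37 to -0.23. Among all tested genes, 6.71% and 1.29% were lower at this p. Fabp2, the intestinal fatty acid-binding protein gene and 1 of the 10 defining enterocyte markers, was the member called. It was 253, 342, 2757, 293 and 218 CPM in the S_wm mice, 104 to 200.1 CPM after VSG and 257 to 519 CPM in S_al mice. The VSG libraries were below all others, and the fold change was -2.37 ± 0.53 (edgeR adjusted p = 0.0463) with and -0.89 ± 0.43 without mouse 27 (unadjusted p = 0.0448). The other defining markers, such as Apoa1, Apoa4 and Rbp2, had values between -0.68 and 0.38 without it. Abhd12, a lipase gene (-0.91 and -0.51), Dnase1, a nuclease gene (-3.46 and -1.65), and Pck1, a gluconeogenic enzyme gene (-2.22 and -1.05), were also called lower.

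Of 10 Paneth cell markers, 2 were called lower with 11 libraries and 0 without mouse 27. The alpha-defensin gene Defa17 was 12.0, 7.99, 32.1, 2.74 and 12.3 CPM in the S_wm mice and 1.25 to 3.28 CPM after VSG, with S_wm mouse 29 inside the VSG range. Its log2 fold change was -2.67 ± 0.52 (edgeR adjusted p = 0.0133) and -2.07 ± 0.50 without mouse 27 (unadjusted p = 0.000174). Itln1, which encodes the lectin intelectin, was 42.9 to 221 CPM in the 4 other S_wm libraries, 912 CPM in mouse 27 and 24.7 to 92.4 CPM after VSG, with a value of -2.40 that became -1.31. The median of the Paneth list was -2.35 with 11 libraries and -0.92 with 10. Without mouse 27, 3 were lower at an unadjusted p under 0.05 (Defa17, Itln1 and Lyz1), and 1 to 4 when a further library was left out, with 1 without S_wm mouse 16. The share of all tested genes lower at this p without mouse 27 was 1.29%. Defa29 (-3.08 and -1.86), Defa34 (-4.88 and -2.21) and Reg1 (-1.95 and -0.53) were called too. Defa34 was 7.52 CPM in mouse 27 and 0 to 0.584 CPM in the other S_wm libraries. Alpha-defensin genes are near-identical copies, so their separate values are uncertain. Paneth cells are not enteroendocrine cells, and the summed level of their markers moved with this comparison: 206 to 815 CPM in 4 S_wm, 147 to 386 CPM in 6 VSG and 131 to 621 CPM in 5 S_al libraries. Their part in the result was not tested.

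The remaining called genes were Papss2 (-1.67, and -0.35 without mouse 27), Aldh4a1 (-1.66 and -0.54), Prr15 (-1.72 and -0.52), Phlpp2 (-0.86 and -0.33), Asah2 (-1.72 and -0.58), Eci3 (-1.68 and -0.55), Ces2b (-2.15 and -1.37) and Ugt2b5 (-2.46 and -1.77). Papss2 makes the sulfate donor of sulfation reactions and Asah2 is a ceramidase. Mouse 27 was the highest of the 11 libraries in each of them.

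Both genes called higher were at similar levels in mouse 27 and in the other S_wm libraries. Ufsp1 (chromosome 5, 137294629 to 137295665), a gene of the UFM1 peptidase family, was 3.86, 7.19, 4.48, 4.38 and 6.76 CPM in S_wm mice 16, 21, 27, 29 and 31. The VSG libraries had 8.46 as their lowest, 13.1 as their median and 19.2 CPM as their highest value, and S_al libraries had 5.22 to 9.49 CPM. VSG did not overlap with S_wm, and the log2 fold change was 1.31 ± 0.26 (edgeR adjusted p = 0.0133) and 1.25 ± 0.28 without mouse 27 (unadjusted p = 6.28e-05, the lowest of any gene, adjusted p = 0.449). Tmem252 (chromosome 19, 24674008 to 24682233) was 6.54, 8.69, 7.08, 7.30 and 5.14 CPM in the S_wm mice, 9.86 to 18.2 CPM after VSG and 7.30 to 12.2 CPM in S_al mice. It did not overlap between VSG and S_wm either, with a value of 1.02 ± 0.23 (edgeR adjusted p = 0.0418) that stayed at 1.02 ± 0.24 without mouse 27. Both kept their direction when any single library of the 11 was left out. Ufsp1 was not called without S_wm mouse 27 or VSG mouse 18 (adjusted p = 0.0781 from edgeR). Tmem252 was not called without S_wm mouse 27 or without VSG mouse 18, 22, 25, 28 or 30, with edgeR adjusted p-values of 0.0633 to 0.128 for the VSG mice.

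**Figure D4:**
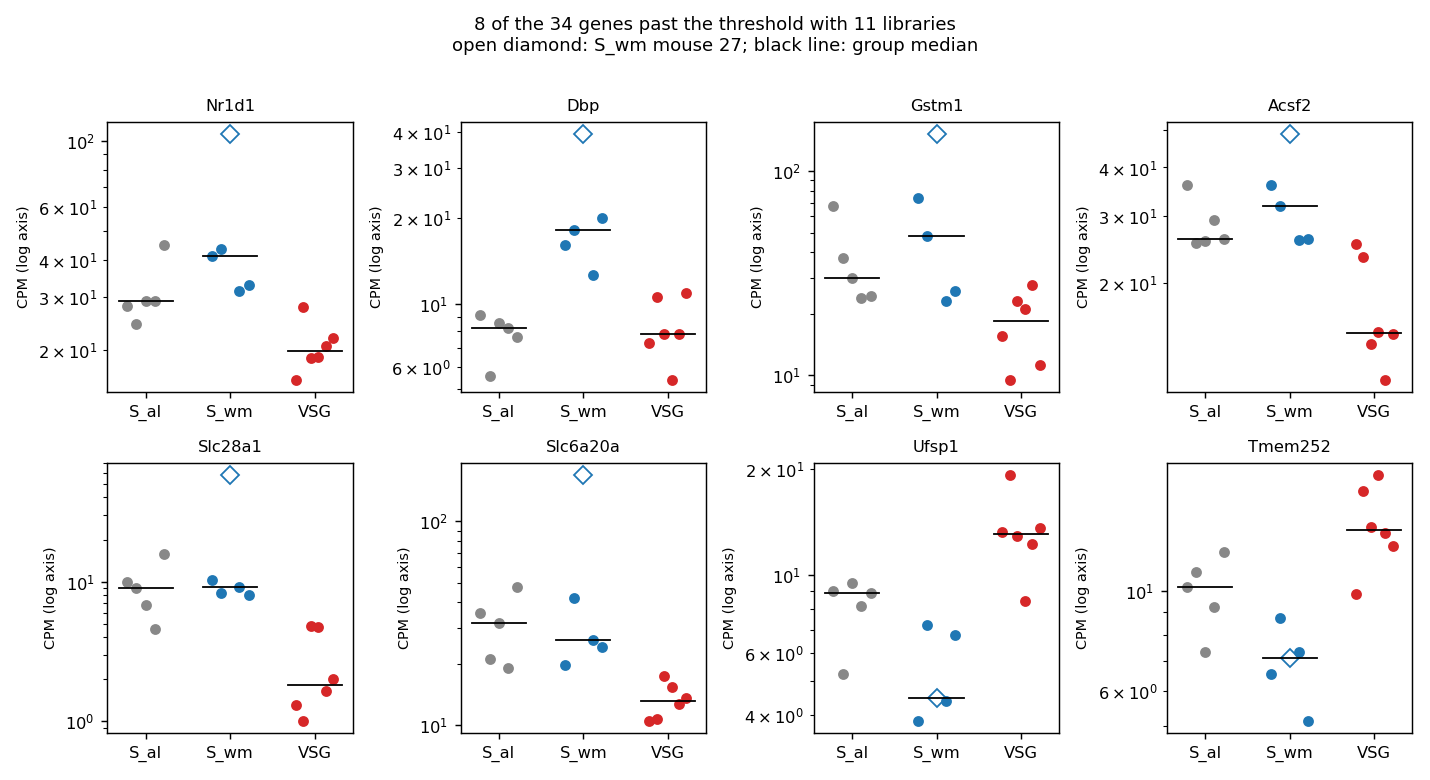
Levels (CPM, log axis) of 8 called genes in the S_al, S_wm and VSG libraries of the duodenum, with 1 point per mouse, an open diamond for S_wm mouse 27 and a line at the group median. In Nr1d1, Dbp, Acsf2, Slc28a1 and Slc6a20a every VSG point lies below every S_wm point, in Ufsp1 and Tmem252 above, and in Gstm1 the groups overlap.

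Of the genes with the lowest unadjusted p in the higher direction without mouse 27, some were not called with 11 libraries. Ache, the acetylcholinesterase gene, was 10.1, 17.4, 11.3 and 24.1 CPM in S_wm mice 16, 21, 29 and 31, 4.77 CPM in mouse 27 and 17.8 to 60.5 CPM after VSG (log2 fold change 1.05 ± 0.31, unadjusted p = 0.00138, and 1.27 ± 0.31 with all libraries, edgeR adjusted p = 0.0532). Ache and Ufsp1 were both highest in VSG mouse 18 (60.5 and 19.2 CPM). Within the VSG group both were lowest in mouse 25 (17.8 and 8.46 CPM). Whether the values of Ache and Ufsp1 are separate results was not tested. Mapkapk3, a kinase gene of the p38 pathway, had a value of 1.07 ± 0.31 and Mfsd4a, an orphan transporter gene, of 1.77 ± 0.50. Mouse 27 was the highest S_wm library in both of the latter, and with it their values were 0.31 and 0.53. In the lower direction Magi2, a scaffold protein gene, was at -1.25 ± 0.32 without mouse 27 and -1.02 ± 0.33 with it.

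Mucosal defence genes had positive values as a group. These are the antimicrobial lectins, oxidases and NF-kappaB feedback genes that the epithelium switches on towards microbes. Of 22 members tested with 11 libraries, 1 was called higher (Tmem252, placed in the list with earlier results known) and 1 lower (Reg1), and the median log2 fold change was 0.78. Without mouse 27 the median of 23 members was 0.93, against 0.0119 over all tested genes. At an unadjusted p under 0.05, 11 members were higher and 0 lower, beside 2% and 1.29% of all tested genes. The whole list, and not only Tmem252, was chosen with earlier results of these data known. This count is therefore no independent evidence. With a further library left out, between 7 (without S_wm mouse 31) and 12 members were higher.

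Reg3b, an antimicrobial C-type lectin gene, was 195, 282, 393 and 124 CPM in S_wm mice 16, 21, 29 and 31 and 1306 CPM in mouse 27. The VSG libraries had 222 as their lowest, 990 as their median and 1868 CPM as their highest value, and S_al libraries had 125 to 550.5 CPM. In 5 of the 6 VSG libraries the level was above the 4 S_wm libraries, and mouse 27 was above 5 of the VSG libraries. The log2 fold change was 1.96 ± 0.69 without mouse 27 (unadjusted p = 0.00741, edgeR adjusted p = 1) and 1.08 ± 0.65 with it. Reg3g behaved alike, at 38.2 to 145 CPM in 4 S_wm libraries, 515 CPM in mouse 27 and 98.9 to 892 CPM after VSG (2.01 ± 0.64 without mouse 27).

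Feedback genes of NF-kappaB signalling had smaller values. Nfkbia, which encodes the inhibitor IkappaB alpha, was 46.1, 45.7, 64.3, 51.1 and 36.6 CPM in the S_wm mice and 44.3 to 89.5 CPM after VSG, with a median of 63.9 (0.57 ± 0.17 without mouse 27, unadjusted p = 0.00128). Tnfaip3, which encodes the A20 protein, was 4.41 to 8.76 CPM in 4 S_wm libraries and 7.39 to 47.2 CPM after VSG, and Tifa, an adaptor of the same pathway, 20.4 to 41.2 CPM and 26.6 to 79.0 CPM. Both groups overlapped in every one of these genes. The inducible nitric oxide synthase gene Nos2 was 1.18 to 4.20 CPM in 4 S_wm and 1.01 to 29.4 CPM in the VSG libraries, with VSG mice 18 and 30 at the bottom. The dual oxidase gene Duox2 was highest in VSG mouse 28, at 86.2 CPM, and its other VSG libraries were at 1.71 to 30.1 CPM. VSG mouse 28 also had the highest immune marker sum among the VSG libraries, 680 CPM, of which Cd74 was 621 CPM. Without mouse 27 and VSG mouse 28, 8 members were higher and 2 lower. The part of immune cells in the result was not tested.

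Immediate early genes, which neurons and endocrine cells transcribe within minutes of a stimulus, also had positive values. Of 22 tested members 0 were called in edgeR. Their median was 0.63 with 11 libraries and 0.78 without mouse 27. At an unadjusted p under 0.05, 9 were higher and 0 lower in either case. Over all tested genes 2% were higher in either case, while 6.71% with and 1.29% without mouse 27 were lower. Egr1 was 179, 228, 102, 112 and 162 CPM in the S_wm mice, and 184, 348 and 790 CPM were the lowest, median and highest VSG values (1.19 ± 0.54 without mouse 27, unadjusted p = 0.0339 from edgeR). Fosb was 55.1, 73.2, 19.7, 41.2 and 43.3 CPM against 54.5 to 235 CPM, and Dusp1 19.5 to 52.1 CPM against 32.9 to 165 CPM. VSG mice 11 and 18 were the 2 highest libraries in all 3 genes. Without VSG mouse 11 or without VSG mouse 18, in addition to mouse 27, 2 members were higher instead of 9, and without S_wm mouse 29 also 2. S_al libraries had 171 to 454 CPM for Egr1 and overlapped both groups.

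**Figure D5:**
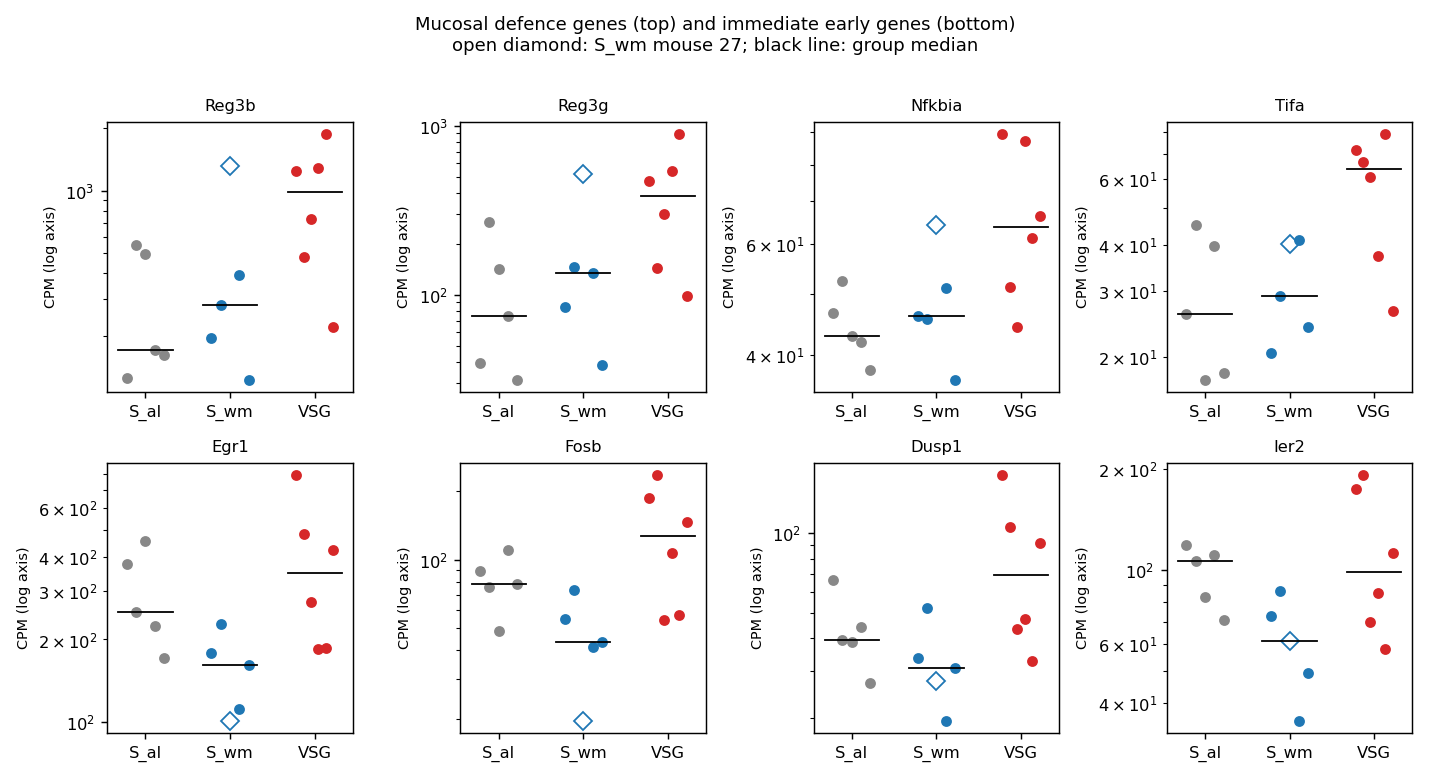
Levels (CPM, log axis) of 4 mucosal defence genes (top) and 4 immediate early genes (bottom) in the S_al, S_wm and VSG libraries of the duodenum, with 1 point per mouse, an open diamond for S_wm mouse 27 and a line at the group median. The VSG medians are above the S_wm medians in all 8 panels and the groups overlap, while mouse 27 is at 1306 CPM in Reg3b and at 102 CPM in Egr1.

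Hormone genes of the enteroendocrine cells were not called in either direction. Of 13 gut peptide genes tested with 11 libraries, 0 were called by edgeR and 0 had an unadjusted p under 0.05. Without mouse 27, 0 of 14 were called by edgeR or DESeq2, and 1 had an unadjusted p under 0.05. The GIP gene Gip was 22690, 9008, 8744, 29100 and 28860 CPM in the S_wm mice and 13535 to 26187 CPM after VSG, with a log2 fold change of -0.11 ± 0.62 without mouse 27. S_wm mice 21 and 27 had less than any VSG library, whereas the other 3 were above the VSG median. The secretin gene Sct was 1428 to 1819 CPM in 4 S_wm libraries and 1203 to 2440 CPM after VSG (0.06 ± 0.29), and the cholecystokinin gene Cck 3972 to 5373 CPM and 2446 to 5672 CPM (-0.32 ± 0.34). The somatostatin gene Sst had a value of 0.11 ± 0.53, the ghrelin gene Ghrl of -0.18 ± 0.43 and the proglucagon gene Gcg of -0.32 ± 0.46. Neurotensin, Nts, was 641, 460, 1261 and 866 CPM in the 4 S_wm libraries, 278 CPM in mouse 27 and 313 to 856 CPM after VSG (-0.77 ± 0.37, unadjusted p = 0.0421), with S_al libraries at 229 to 739 CPM.

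The secretory apparatus gave small values as well. Among 12 granin and prohormone-processing genes 0 were called and 0 had an unadjusted p under 0.05 in either comparison, with medians of 0.13 and, without mouse 27, -0.12. Chga, which encodes the secretory granule protein chromogranin A, was 10280 to 18970 CPM in 4 S_wm libraries, 3889 CPM in mouse 27 and 14031 to 24543 CPM after VSG (0.26 ± 0.25 without mouse 27). Neurod1 itself was at 0.08 ± 0.20 without mouse 27. The median of 29 enteroendocrine transcription factor genes was 0.11 with 11 libraries and -0.03 with 10, and that of 22 ion channel genes 0.06 and -0.13, with 0 genes called in both lists. All 3 medians changed sign without mouse 27. With standard errors of 0.25 to 0.62 for Chga and Gip, differences of this size were not detectable.

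Among the nutrient receptors, Gpbar1, which encodes the bile acid receptor TGR5, had the lowest unadjusted p. It was 2.34, 0.799, 0, 1.09 and 1.03 CPM in S_wm mice 16, 21, 27, 29 and 31 and 0 to 0.325 CPM after VSG, with 0 in VSG mice 22 and 28. Without mouse 27 the groups did not overlap and the fitted log2 fold change was -2.69 ± 0.77 (unadjusted p = 0.00107, edgeR adjusted p = 0.992), at levels near the limit of detection. Maob, which encodes a monoamine oxidase, was 25.5, 43.4, 48.9, 33.4 and 34.7 CPM against 17.9 to 31.6 CPM, with a value of -0.65 ± 0.16 (edgeR adjusted p = 0.0549) and -0.54 ± 0.17 without mouse 27.

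The same mice gave ileum and colon libraries, so the comparisons in the 3 regions share their animals. Of the 34 genes called in the duodenum, 2 were called in the ileum (Dbp and Nr1d1) and 3 in the colon (Dbp, Nr1d2 and Tmem252). Over all 15126 tested genes, edgeR called 7 in the ileum and 9 in the colon. Dbp had a log2 fold change of -1.66 ± 0.27 in the ileum (edgeR adjusted p = 0.00302) and of -1.84 ± 0.26 in the colon (adjusted p = 8.8e-05), beside -1.35 ± 0.27 in the duodenum. Nr1d1 was at -1.18 ± 0.24 in the ileum (adjusted p = 0.0313) and -0.97 ± 0.23 in the colon (adjusted p = 0.16, and 0.0144 when the duodenum library of mouse 27 was out of the fit). Tmem252 was at 0.98 ± 0.23 in the ileum (adjusted p = 0.107) and 1.09 ± 0.23 in the colon (adjusted p = 0.0389). Gstm1 had -0.45 ± 0.36 in the ileum and 0.19 ± 0.32 in the colon, and Acsf2 -0.44 ± 0.20 and 0.02 ± 0.18, values closer to 0 than in the duodenum. Of the 32 lower genes, 29 had a negative value in the ileum and 11 in the colon.

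The difference between regions was tested directly. The VSG effect in the duodenum differed from that in the ileum in 0 of 15126 genes (0%) by edgeR and in 0 by DESeq2, with 505 (3.34%) at an unadjusted p under 0.05. Against the colon 0 genes (0%) passed by edgeR and 17 by DESeq2, with 912 (6.03%) at an unadjusted p under 0.05, and without mouse 27 edgeR gave 0 and 432. Clock output genes had small differences with mouse 27 included: Dbp was 0.31 above the ileum (unadjusted p = 0.423 from edgeR) and 0.49 above the colon (unadjusted p = 0.193). For Gstm1, also with mouse 27 included, the duodenum was 2.04 below the colon on the log2 scale. The unadjusted p of 6.02e-05 from edgeR did not pass after adjustment over all genes. The Gstm1 value in the duodenum itself was -1.85 with and -1.27 without mouse 27. Other settings of edgeR gave calls against the colon, 1 with a stricter filter and up to 4 with 1 S_wm library left out, and without mouse 27 and without a filter on low counts 24 genes were called against the ileum and 58 against the colon.

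Set beside S_al mice, the called genes fell into more than one pattern. Of the 32 genes lower than in S_wm, 30 also had a negative value for VSG against S_al with 11 libraries, and in 19 the S_wm mean was above the S_al mean without mouse 27. Dbp and Defa17 had S_wm above S_al by 1.11 and 1.14 on the log2 scale without mouse 27, while Slc28a1, Gstm1, Acsf2 and Fabp2 had values of -0.05, 0.23, 0.08 and -0.29. For these 4, the value of VSG against S_al was -1.86, -1.04, -0.72 and -1.18, and 0 of them passed after adjustment. Between VSG and S_al, edgeR called 0 genes with all libraries and 0 without mouse 27 (370 and 460 at an unadjusted p under 0.05), and DESeq2 called 0 and 1. These comparisons share the VSG or the S_wm libraries with the main one and are no independent evidence.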

How the data were processed

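For 48 libraries of sorted cells from 17 mice, the authors deposited counts for each Ensembl gene, from reads aligned with STAR 2.5.1 to GRCm38. The counts are whole numbers without normalization. Whether the counting used the strand of the reads is not given in the sources used here. Of 53465 listed genes, 53360 were matched to GENCODE M21, and 0 columns lacked a sample. Groups, regions and mice were taken from the labels. The tissue label was used for mouse 12, whose ileum and colon description codes are crossed.

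Counts were fitted with edgeR 4.0.16 under R 4.3.3 (filterByExpr, TMM scaling, 1 mean for each of 9 groups of surgery and region, robust quasi-likelihood test, Benjamini-Hochberg adjustment, threshold 0.05). All 48 libraries entered, or 47 without the duodenum library of S_wm mouse 27. Standard errors were obtained from the F statistic of each test. The biological coefficient of variation was 0.302 with and 0.278 without mouse 27. The study's own analysis used DESeq2, and DESeq2 1.42.0 was an alternative here. Further alternatives were DESeq2's size factors, no filter, at least 10 counts in every library of a group, fewer libraries in the fit, the second library index as a covariate, voom (limma 3.58.1) with a replicate block for the mouse, omission of mouse 12's ileum and colon, and omission of each library in turn.

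No pair of libraries of a group was a duplicate (25 pairs, lowest chi-square per gene 15.7). Libraries that share a mouse number come from 1 animal. In 22 pairs of a duodenum library with another region of its mouse, deviations from the group means correlated at -0.036 to 0.362 (median 0.136). The groups compared hold different mice, so the comparison itself is unpaired.

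The members and the 29 gene lists were chosen with earlier results of these data known. The genes named are the called genes of lowest p (up to 12 per direction), the 6 of lowest p per direction without mouse 27, the called members of each list or otherwise up to 4 of lowest p, Neurod1, Chga, Chgb, Scg2, the gut peptide genes and 10 enterocyte markers. Other list members and called genes in the text, and the values of Slc5a1, were chosen after their values were seen. Promoter sequences are from RefSeq (GRCm38.p6). Counting error was not measured on its own, and it weighs more on genes at a few CPM, such as Ufsp1. Genes below 1 CPM rest on few reads.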

Additional observations from a re-analysis of the deposited data

Results flagged for a closer look

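In groups of 5 or 6 libraries, summed marker levels and totals were examined with Dixon's ratio for single distant libraries, at the 95% level, which chance exceeds in about 1 of 20 groups. Of 60 such tests, 19 found one, 17 of them S_wm mouse 27. Its library was the highest of the S_wm group for enterocyte absorptive genes (91100 CPM), defining enterocyte markers (44887 CPM), oxidative phosphorylation subunits (30440 CPM), sugar and amino acid transporters (11346 CPM), xenobiotic genes (10541 CPM), mucosal defence genes (10254 CPM), goblet cell markers (9192.5 CPM), fat oxidation genes (8619 CPM), interferon and MHC II genes (5580.2 CPM), Paneth cell markers (3825 CPM), immune cell markers (2093 CPM), bile acid genes (1205 CPM), glucocorticoid and metallothionein genes (897 CPM) and tuft cell markers (93.1 CPM). It was the lowest for enteroendocrine transcription factors (2458 CPM), exocytosis genes (707.33 CPM) and stromal markers (69.8 CPM). Among VSG libraries, mouse 28 was far above the rest for immune cell markers (680 CPM) and for interferon and MHC II genes (1711 CPM). Cd74 is in both of these lists, at 1816 CPM in mouse 27 and 621 CPM in mouse 28. Of 127 named genes, 64 had 1 such library in the S_wm group and 23 in the VSG group. In the S_wm group it was mouse 27 as the highest library for 52 genes and as the lowest for 8. No cause was tested.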

How the results depend on the processing

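The number of called genes in the comparison of 6 with 5 libraries, 34, became 201 with DESeq2, 71 with DESeq2's size factors in edgeR, 76 with the stricter filter, 9 with no filter, 7 with limma voom and the mouse as a replicate block, 0 with only the duodenum libraries, 0 with only the libraries compared and 0 with the second library index as a covariate. Among the 11 libraries only that of mouse 27 had the other index. It was 26 without the ileum and colon of mouse 12. With single libraries left out it ranged from 0 to 255: 0 without S_wm mouse 27, 173, 202, 162 and 255 without S_wm mouse 16, 21, 29 or 31, and 10, 8, 13, 14, 13 and 14 without VSG mouse 11, 18, 22, 25, 28 or 30. Without mouse 27, the count of 0 became 1 with limma voom and a replicate block together and 120 with no filter, and was 0 under every other alternative run, leave-outs included. The number of genes differing between duodenum and ileum was 0 under every alternative run with all 11 libraries, and without mouse 27 it was 24 with no filter and 0 under the others. The difference between duodenum and colon, 0, became 17 with DESeq2 and 1 with the stricter filter, and ranged from 0 to 4 with single libraries left out (4 without S_wm mouse 31, 3 without mouse 29, 1 without mouse 16 or 21). Without mouse 27 it was 58 with no filter, 1 with DESeq2 and 0 under the others. The cause of these shifts was not tested. Of 2507 refits of 127 named genes, 2279 kept their direction and side of the threshold, 186 lost the call, 41 gained it and 1 reversed: Rbp2 ranged from -1.298 to 0.01428 with single libraries left out, the latter without mouse 27. The 22 called genes among them reversed in 0 of 439 refits. The study's depth limits genes below about 1 CPM, such as Gpbar1, and Slc23a1 and Defa34 in most S_wm libraries.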

Other observations

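Genes of the heat shock and integrated stress responses, not described above, had mostly positive values. Of 23 tested, 0 were called by edgeR, 5 were higher and 0 lower at an unadjusted p under 0.05 without mouse 27, and the median log2 fold change was 0.18. Over all tested genes, 2% were higher and 1.29% lower at this p. The inducible HSP70 gene Hspa1b was 2.80, 0.999, 0.912 and 0.441 CPM in S_wm mice 16, 21, 29 and 31, and 1.20, 2.17 and 30.8 CPM were the lowest, median and highest VSG values (2.503 ± 0.815, unadjusted p = 0.00361 from edgeR). VSG mouse 11 held that highest value, and without it 2 members of the list were higher. Atf4, a transcription factor of the integrated stress response, was 94.5 to 129.8 CPM in 4 S_wm libraries and 118 to 202 CPM after VSG (0.47 ± 0.17). Slc7a5, a large neutral amino acid transporter gene, was 12.2 to 20.9 CPM in 4 S_wm libraries and 20.8 to 37.2 CPM after VSG, with 1 pair of values in overlap (0.79 ± 0.23, unadjusted p = 0.00141, edgeR adjusted p = 0.992).

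Of 15 tested genes of corticosteroid response and metallothioneins, 0 were called by edgeR, and 10 had a positive value without mouse 27, with a median of 0.39. With 11 libraries 4 were higher and 2 lower at an unadjusted p under 0.05, beside 2% and 6.71% of all tested genes. Without mouse 27 those shares of all tested genes were 2% and 1.29%. Hsd11b2, which encodes the enzyme that inactivates corticosteroids, was at 1.38 ± 0.46 without mouse 27 (unadjusted p = 0.00474) and, with Dusp1, made up the 2 members higher at an unadjusted p under 0.05 without mouse 27, where 0 were lower. Nr3c2, the mineralocorticoid receptor gene, was at -0.83 with 11 libraries and -0.32 without mouse 27.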
